A study of Rattus norvegicus with 9 samples.

Results

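The metabotropic glutamate receptors examined here were the 6 genes Grm2, Grm3, Grm4, Grm5, Grm7 and Grm8, picked by gene name from the 34890 loci of an RNA sequencing table of rat spinal cord. Each name was carried by 1 locus. All rats were wild-type Sprague Dawley males, and the tissue was lumbar spinal cord from the side of the operation. The 3 JA rats had sham surgery and received saline by mouth. The 3 SNI rats had spared nerve injury, in which the tibial and common peroneal branches of the sciatic nerve are cut and the sural branch is kept, and also received saline. The 3 PLM rats had the same injury and received, by mouth, paeoniflorin, a glycoside of peony root, together with liquiritin, a flavonoid glycoside of liquorice root. The labels give paeoniflorin as 20.65 mg/mL in all 3 PLM rats and liquiritin as 3.98, 3.99 and 3.100 mg/mL in replicates 1, 2 and 3, whereas the study's methods describe a single dose. Ages were not given in the sources used here. Each sample was a piece of whole cord, so fewer cells of a type and less RNA per cell cannot be told apart.

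Metabotropic glutamate receptors are G protein-coupled receptors that sense synaptic glutamate through a large extracellular domain and act more slowly than the AMPA and NMDA channels. Group I receptors, here Grm5, couple to Gq and phospholipase C, are mostly postsynaptic, and release calcium from internal stores. Group II (Grm2, Grm3) and group III (Grm4, Grm7, Grm8) couple to Gi/o, lower cyclic AMP and mostly restrain transmitter release. Grm3 is a member known from astrocytes as well as neurons, and is the receptor for the peptide transmitter N-acetylaspartylglutamate (NAAG). In the dorsal horn, group I activity is known to promote sensitisation to pain, and group II and III agonists are known to dampen it.

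Levels are given as TPM, transcript abundance corrected for transcript length and scaled to a fixed total, so that genes can be compared within a sample. The read depth of the libraries is unknown, and counting error could not be estimated. Grm3 was the most abundant of the 6 receptors, with a mean over the 9 samples of 26.5 TPM and a range of 23.35 to 30.02 TPM. Grm4 followed with a mean of 11.4 TPM, then Grm7 with 7.85 TPM, Grm5 with 3.38 TPM, Grm8 with 2.28 TPM and Grm2 with 0.532 TPM. This order held in 9 of 9 samples for each pair of neighbours. The closest neighbours were Grm4 and Grm7, whose ratio within a sample was between 1.09 and 2.00. Their ranges over samples overlapped, as Grm4 spanned 7.25 to 16.94 TPM and Grm7 spanned 5.98 to 9.77 TPM. Grm5 and Grm8 were also close, with a ratio between 1.22 and 1.78 and ranges of 2.65 to 4.43 TPM and 1.62 to 2.92 TPM. Grm3 alone made up 44.0% to 61.9% of the summed TPM of the 6 genes. Grm6, a family member known from retinal bipolar cells and looked up after the values were seen, was at 0.07 to 0.21 TPM.

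**Figure D1:**
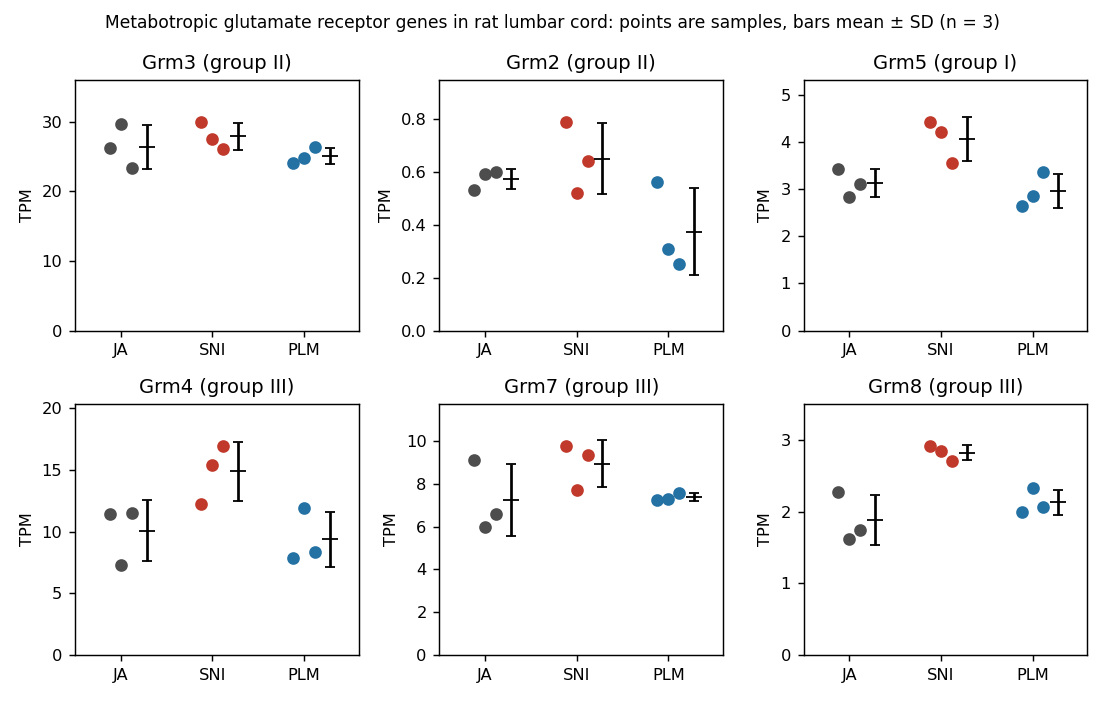
TPM of each receptor gene (vertical axis, from 0, with its own scale per panel) in each JA, SNI and PLM sample; points are samples and bars give the mean ± SD of 3 samples. The 3 SNI samples lie above all JA and PLM samples for Grm4, Grm5 and Grm8, whereas the groups overlap for Grm3, which spans 23.35 to 30.02 TPM.

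Comparing SNI with JA asks how nerve injury alone was reflected in the receptors. Differences were fitted with limma on log2(TPM + 1), and log2 fold changes are on that scale, which understates the change of low genes. A gene counted as changed at a Benjamini-Hochberg adjusted p under 0.05 over all loci that averaged 1 TPM or more in the samples compared. None of the 5 receptors above this limit changed, and limma called 0 of 15557 loci (0%), also with each sample centred on its median. At an unadjusted p under 0.05 limma gave 1104 loci (7.10%), and 2 of the 5 receptors, Grm4 and Grm8, were among them. Grm2 was under the limit in all 3 comparisons.

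The presynaptic group III receptors Grm4 and Grm8 had the largest differences between SNI and JA of the 5, and the third of that group, Grm7, was close to Grm5. Grm4 was at 11.44, 7.25 and 11.53 TPM in JA and at 12.25, 15.43 and 16.94 TPM in SNI. The SNI samples were all higher, though SNI replicate 1 exceeded the highest JA sample by little. The log2 fold change came to 0.53 (SE 0.20, 95% interval 0.06 to 1.01, adjusted p = 0.614, limma), and to 0.33 without JA replicate 2. Grm8, a presynaptic receptor with a high affinity for glutamate, was at 2.28, 1.62 and 1.75 TPM in JA and at 2.92, 2.85 and 2.71 TPM in SNI. Its groups did not overlap either, and the log2 fold change came to 0.41 (SE 0.15, interval 0.06 to 0.76, adjusted p = 0.614, limma). Grm7, which sits in the presynaptic active zone and has a low affinity for glutamate, was at 9.13, 5.98 and 6.58 TPM in JA and at 9.77, 7.71 and 9.35 TPM in SNI. JA replicate 1 fell within the SNI range, and the log2 fold change was 0.29 with an interval of -0.12 to 0.69 (adjusted p = 0.614, limma). It was 0.18 without JA replicate 2 and 0.45 without JA replicate 1.

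Grm5, the group I receptor, was at 3.43, 2.83 and 3.11 TPM in JA and at 4.43, 4.2 and 3.55 TPM in SNI. All SNI samples were above all JA samples, and the log2 fold change was 0.29 with an interval of -0.02 to 0.61 (adjusted p = 0.614, limma). Grm3 was at 26.26, 29.65 and 23.35 TPM in JA and at 30.02, 27.57 and 26.10 TPM in SNI. These groups overlapped, and the log2 fold change was 0.08 with an interval of -0.19 to 0.35 (adjusted p = 0.786, limma). Grm2, an autoreceptor of glutamate terminals, was at 0.53, 0.59 and 0.60 TPM in JA and at 0.79, 0.52 and 0.64 TPM in SNI, again with overlap. For 3 of the 5 receptors tested the SNI samples all lay over the JA samples, against 12.1% of all loci. With median-centred values this was 1 of 5, Grm8, against 4.0% of all loci. The median log2 fold change of all loci was 0.12 as deposited and -0.01 when centred. Centred log2 fold changes were 0.41 for Grm4, 0.29 for Grm8, 0.17 for Grm5, 0.16 for Grm7 and -0.04 for Grm3. The 12 neuron markers had a median log2 difference of 0.35 as deposited and 0.23 when centred, and none passed the threshold. Their summed level was 3024 to 5647 TPM in JA and 5477 to 6920 TPM in SNI, and its part in the receptor values was not tested.

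Comparing PLM with SNI asks how the drug pair was reflected in injured cord. None of the 5 receptors tested changed, although limma called 2148 of 15474 loci (13.9%), 2110 of them lower. On median-centred values limma called 126 loci (0.814%), and again none of the receptors. At an unadjusted p under 0.05 limma gave 37.1% of all loci and 4 of the 5 receptors, namely Grm4, Grm5, Grm7 and Grm8. The median log2 fold change of all loci was -0.21 as deposited and 0.04 when centred, and receptor values are given on both scales for this reason.

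Grm4 had the largest difference between PLM and SNI, as it had between SNI and JA. It was at 7.87, 11.92 and 8.30 TPM in PLM, against 12.25, 15.43 and 16.94 TPM in SNI. PLM replicate 2 nearly reached SNI replicate 1, but the groups did not overlap. The log2 fold change came to -0.62 (SE 0.18, interval -1.06 to -0.19, adjusted p = 0.0630, limma), and to -0.38 when centred (adjusted p = 0.362, limma). With loci kept only at 1 TPM or more in every sample, the adjusted p of Grm4 was 0.0460 (limma), and over all alternatives it lay between 0.0460 and 0.429.

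Grm8 was at 2.00, 2.33 and 2.06 TPM in PLM, below its 3 SNI samples, with a log2 fold change of -0.29 and an interval of -0.55 to -0.03 (adjusted p = 0.110, limma). Grm7 was at 7.24, 7.31 and 7.59 TPM in PLM, just under the lowest SNI sample at 7.71 TPM. Its log2 fold change was -0.24 with an interval of -0.48 to -0.0004 (adjusted p = 0.134, limma). PLM was the tightest group for Grm7, with a coefficient of variation of 2.51% against 23.1% in JA and 12.2% in SNI. Grm5 was at 2.65, 2.85 and 3.36 TPM in PLM, below its SNI range of 3.55 to 4.43 TPM. Its log2 fold change was -0.36 with an interval of -0.65 to -0.06 (adjusted p = 0.0911, limma).

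Grm3 was at 24.09, 24.74 and 26.38 TPM in PLM, and PLM replicate 3 was above SNI replicate 3. For Grm3 the log2 fold change came to -0.15 (SE 0.08, interval -0.33 to 0.03, adjusted p = 0.201, limma). When centred it was 0.10 with an interval of -0.05 to 0.25 (adjusted p = 0.459, limma), so its sign depended on the scaling. Grm2 was at 0.56, 0.31 and 0.25 TPM in PLM, and PLM replicate 1 lay within the SNI range. In a fit with no filter, Grm2 had a log2 fold change of -0.27 and an interval of -0.54 to 0.01 (adjusted p = 0.188, limma), and -0.04 when centred (adjusted p = 0.902, limma). For 4 of the 5 receptors tested the PLM samples all lay under the SNI samples, against 41.9% of all loci. When centred this was 0 of 5, against 9.73% of all loci. Centred log2 fold changes were -0.11 for Grm5, -0.04 for Grm8 and 0.01 for Grm7.

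**Figure D2:**
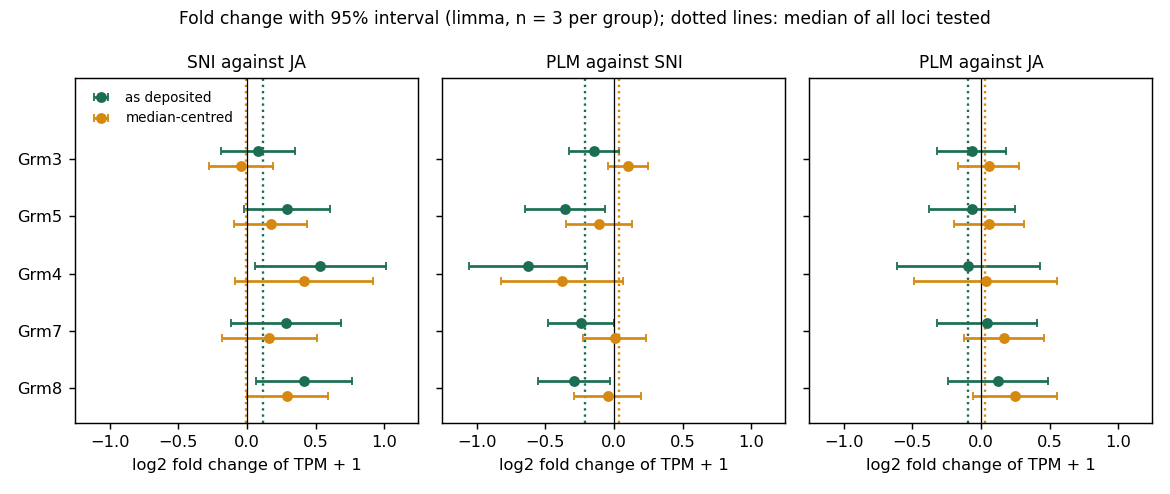
Log2 fold change of TPM + 1 (horizontal axis) of 5 receptors in the 3 comparisons, with 95% intervals from limma; green is as deposited, orange is centred on each sample's median, and dotted lines mark the median of all loci tested. In PLM against SNI the median of all loci is at -0.21 as deposited, Grm3 is at -0.15 and Grm4 at -0.62.

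Comparing PLM with JA sets treated injured cord against uninjured cord. These comparisons share samples, so their values are given side by side and were not correlated. None of the 5 receptors changed, where limma called 3 of 15349 loci (0.0195%) as deposited and 2 (0.0130%) when centred. At an unadjusted p under 0.05 limma gave 0 of the 5 receptors and 11.8% of all loci. Log2 fold changes were -0.09 for Grm4, -0.07 for Grm3, -0.06 for Grm5, 0.04 for Grm7 and 0.12 for Grm8, where the median of all loci was -0.10. The widest interval of the 5 was that of Grm4, -0.61 to 0.43, and the narrowest that of Grm3, -0.32 to 0.19. No receptor separated the PLM from the JA samples as deposited, where 15.7% of all loci lay lower and 2.00% higher in every PLM sample. When centred, Grm8 lay higher in every PLM sample, against 9.51% of all loci, by 0.25 on the log2 scale (adjusted p = 0.552, limma). The group means of Grm4, in the order JA, SNI and PLM, were 10.1 ± 2.45, 14.9 ± 2.39 and 9.36 ± 2.22 TPM (SD, n = 3). For Grm5 they were 3.12 ± 0.300, 4.06 ± 0.456 and 2.95 ± 0.366 TPM. For Grm8 they were 1.88 ± 0.350, 2.83 ± 0.107 and 2.13 ± 0.176 TPM. Added together, the 6 receptors reached 59.3 ± 0.951 TPM in SNI, against 49.3 ± 3.30 TPM in JA and 47.3 ± 2.59 TPM in PLM (SD, n = 3). These sums are as deposited and hold the shift of all loci, and no centred sum was made.

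Grm3 was then set against the receptors known mainly from neurons within each sample, as the difference between Grm3 and the mean of Grm4, Grm5, Grm7 and Grm8 on log2(TPM + 1). A shift common to a whole sample hardly alters such a difference. It was 2.06, 2.64 and 2.09 in JA, 2.06, 1.97 and 1.86 in SNI, and 2.24, 2.08 and 2.26 in PLM. JA replicate 2 stood apart, with the highest Grm3 of its group and the lowest Grm4, Grm5, Grm7 and Grm8. The summed neuron markers were also lowest in that sample, at 3024 TPM. The mean difference was lowest in SNI at 1.96 ± 0.103, against 2.19 ± 0.0988 in PLM and 2.26 ± 0.330 in JA (SD, n = 3). All PLM samples were above all SNI samples, by 0.23 on average, while JA overlapped with both. Against single receptors the gap between PLM and SNI was 0.48 for Grm4, 0.21 for Grm5, 0.14 for Grm8 and 0.09 for Grm7, and only for Grm5 were the groups apart. The share of Grm3 in the summed TPM of the 6 genes was 47.1% ± 2.94 in SNI and 53.1% ± 2.69 in PLM, without overlap, and 53.7% ± 7.07 in JA (SD, n = 3). No test was made on these scores.

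Astrocyte markers gave a different picture from Grm3. Of 12 astrocyte markers, 11 fell in PLM against SNI and 8 fell on median-centred values, with a median log2 fold change of -1.24 as deposited and -0.99 when centred. The filament protein Gfap fell by 1.28 on the log2 scale (adjusted p = 0.00396, limma), the water channel Aqp4 fell by 1.19 (adjusted p = 0.0138, limma), and the glutamate transporters Slc1a2 and Slc1a3 fell by 1.95 and 1.13 (adjusted p = 0.00477 and 0.00526, limma). The exception was the transcription factor Sox9, with a difference of -0.47 (adjusted p = 0.195, limma). The 12 markers summed to 4128 to 6498 TPM in JA, 5455 to 6597 TPM in SNI and 3007 to 3581 TPM in PLM, and none was at 0 in any sample. JA replicate 3 had the lowest sum outside PLM and also, as deposited, the lowest Grm3 of all 9 samples, 23.35 TPM. When centred, Grm3 was lower in SNI replicate 3 and JA replicate 1, at 1.289 and 1.307 against 1.309 on the log2 scale.

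The difference between Grm3 and the mean of these markers on log2(TPM + 1) was -1.82, -1.96 and -1.75 in SNI and -0.90, -0.77 and -0.53 in PLM. It was -2.04, -1.43 and -1.09 in JA. The PLM samples lay above all others, by 1.11 against SNI and 0.79 against JA on average. This contrast was chosen after the values had been seen. An exact permutation test gave p = 0.1 for PLM against SNI and against JA, and p = 0.4 for SNI against JA. With 3 samples per group, 0.1 is the smallest p this test can give. Most of the size of the contrast is the difference in the markers themselves, whose mean differed by -1.26 between PLM and SNI. Against 12 neuron markers, Grm3 differed between PLM and SNI by 0.04, with overlap. The mean of Grm4, Grm5, Grm7 and Grm8 minus the same neuron markers was lower in every PLM sample, by -0.19 on average against SNI and by -0.23 against JA. For oligodendrocyte markers the median in PLM against SNI was -0.11 and for precursor markers -0.24 on the log2 scale, with 0 of 8 and 0 of 6 past the adjusted threshold in limma. The label of Grm3 as glial rests on general knowledge, since whole cord cannot assign a transcript to a cell type.

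**Figure D3:**
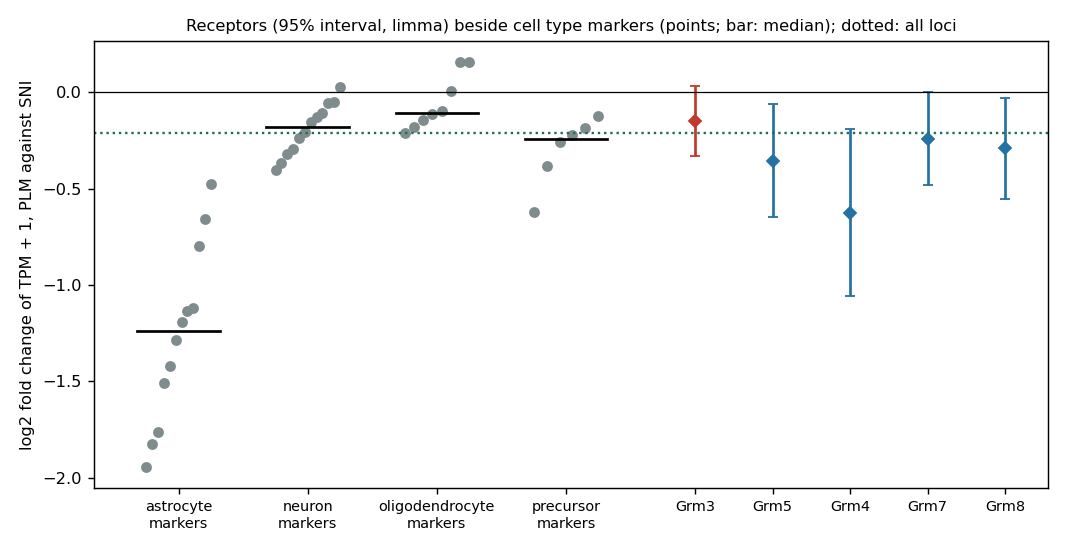
Log2 fold change of TPM + 1 in PLM against SNI (vertical axis) for cell type markers (grey points, 1 per gene, black bar at the median) and for 5 receptors (diamonds with 95% intervals from limma; Grm3 in red). The astrocyte markers have a median of -1.24, whereas Grm3 is at -0.15, near the dotted line for all loci at -0.21.

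**Figure D4:**
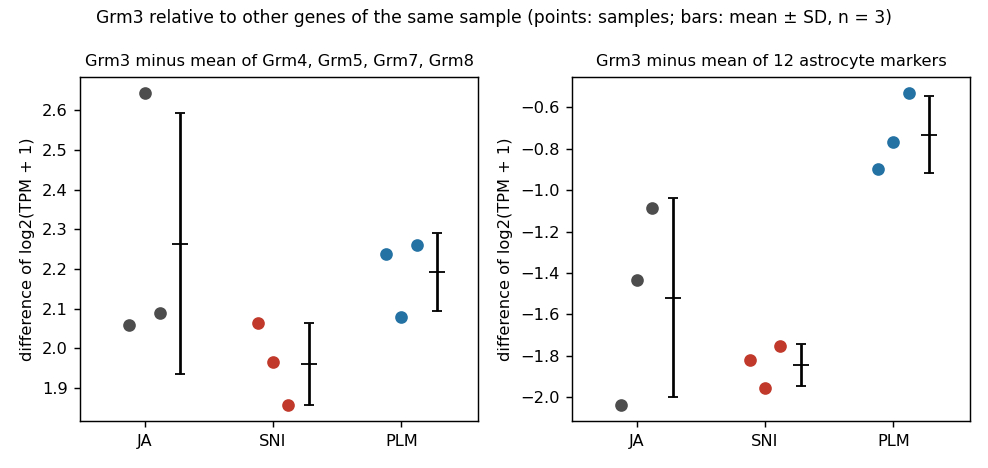
Difference of log2(TPM + 1) between Grm3 and 4 other receptors (left) or 12 astrocyte markers (right) in each sample, with the mean ± SD of 3 samples; the vertical axes do not start at 0. On the left the PLM mean is 2.19 and the SNI mean 1.96, and on the right all PLM samples lie above all others.

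The genes that supply, scaffold and transmit for these receptors were followed in a list of 74 genes, of which 69 passed the limit on low values in each comparison. Against JA none changed in SNI or in PLM. In PLM against SNI, 12 of the 69 fell and 0 rose, a share to be read against the 13.9% of all loci. Their median log2 fold change was -0.28, against -0.21 for all loci. When centred, 0 fell and 1 rose, Rgs4, a regulator that shortens Gq and Gi signals, with a centred difference of 0.41 on the log2 scale (adjusted p = 0.0440, limma) and 0.16 as deposited (adjusted p = 0.165, limma). None of the 12 decreases passed the threshold on centred values.

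On the supply side of Grm3, the NAAG synthetase Rimklb fell in PLM against SNI. It was at 16.73, 16.85 and 15.69 TPM in SNI and at 12.14, 10.49 and 11.10 TPM in PLM, which is -0.51 on the log2 scale (SE 0.08, adjusted p = 0.0176, limma). JA samples were at 17.92, 14.43 and 12.34 TPM, above all PLM samples, as was so for 15.7% of all loci. After centring the difference was -0.26 (adjusted p = 0.219, limma). The related enzyme Rimkla and the NAAG-degrading peptidase Folh1 had log2 fold changes of -0.65 and -0.61 (adjusted p = 0.0605 and 0.0678, limma). For both, every PLM sample lay below every SNI sample, as was so for 41.9% of all loci as deposited. Slc17a6, the vesicular glutamate transporter of most spinal excitatory neurons, averaged 29.6 ± 3.24 TPM in PLM against 35.9 ± 2.54 TPM in SNI (SD, n = 3; adjusted p = 0.0990, limma).

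Among the Gq and phospholipase C genes used by group I receptors, 3 of 16 fell, namely Plcb1, Plcb3 and the G protein subunit Gna11. Plcb1 was at 6.78, 6.25 and 5.58 TPM in SNI and at 2.93, 3.05 and 4.12 TPM in PLM, with JA at 5.57, 3.85 and 3.25 TPM. All SNI samples were thus the highest, although SNI replicate 3 barely exceeded JA replicate 1. PLM differed from SNI by -0.73 on the log2 scale (SE 0.13, adjusted p = 0.0269, limma), and by -0.48 when centred (adjusted p = 0.120, limma). None of the 16 scaffold genes changed. The Grm5 scaffold Homer1 came closest, with 3.38, 2.91 and 3.83 TPM in SNI against 1.65, 1.78 and 2.43 TPM in PLM, or -0.57 on the log2 scale (adjusted p = 0.0530, limma). Elfn1 and Elfn2, postsynaptic partners of group III receptors, had log2 fold changes of -0.20 and -0.24 (adjusted p = 0.322 and 0.256, limma), and 0.05 and 0.0078 when centred.

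Among the Gi/o, adenylyl cyclase and channel genes used by groups II and III, 6 of 17 fell in PLM against SNI. The 6 were the G protein subunits Gnai2 and Gnao1, the cyclases Adcy2, Adcy5 and Adcy8, and the cyclic AMP phosphodiesterase Pde4b. Gnai2 was at 198.00, 204.87 and 196.51 TPM in SNI and at 139.70, 151.29 and 158.62 TPM in PLM, or -0.41 on the log2 scale (SE 0.06, adjusted p = 0.0176, limma), and -0.17 when centred (adjusted p = 0.199, limma). Among receptor kinases, arrestins and regulators of G protein signalling, 2 of 12 fell, Grk5 and Arrb1, with log2 fold changes of -0.37 and -0.50 (adjusted p = 0.0415 and 0.0380, limma), and -0.12 and -0.25 when centred.

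The genes whose pattern was most like that of each receptor were ranked by Pearson's r of median-centred log2(TPM + 1) over the 9 samples, among 13953 loci. The correlations are descriptions, since the best of many loci is high by selection. For Grm3 they were Fnbp1 (r = 0.967), Gna15 (r = 0.932), G3bp1 (r = 0.925), Eif4g2 (r = 0.924) and Slco2b1 (r = 0.923). For Grm7 they were Nat8l (r = 0.991), Klc2 (r = 0.982) and Dync1i1 (r = 0.974). Nat8l makes N-acetylaspartate, Klc2 is a kinesin light chain and Dync1i1 is a dynein intermediate chain. For Grm5 they were Pdzd8, Ppargc1a and Tmem161b, with r between 0.897 and 0.935. Noct led for Grm4 (r = 0.913), and Opcml was among the 3 leading loci for Grm8 (r = 0.943). Among the receptors themselves, r was 0.69 for Grm7 and Grm8, 0.61 for Grm4 and Grm8, 0.57 for Grm5 and Grm8, and -0.83 for Grm3 and Grm4.

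Other properties of the samples also differed, some of them between the groups without overlap. The 13 mitochondrial protein genes took 31.3% to 32.8% of TPM in PLM, 23.7% to 26.1% in SNI and 25.3% to 32.8% in JA. After rescaling TPM without them, the log2 fold change in PLM against SNI was -0.50 for Grm4 (adjusted p = 0.215, limma) and -0.0045 for Grm3 (adjusted p = 0.981, limma). Inhibitory neuron markers summed to 216 to 228 TPM in PLM, below the 290.3 to 361 TPM in SNI, and precursor markers to 305 to 349 TPM, below 379 to 395 TPM. These sums are as deposited, where 41.9% of all loci lay lower in every PLM sample than in every SNI sample. The centred median log2 fold change was -0.04 for inhibitory neuron markers, with 1 of 6 past the threshold, and 0.0062 for precursor markers. Oligodendrocyte markers were lower in every SNI sample, at 46252 to 48489 TPM, than in JA at 48982 to 56468 TPM and in PLM at 50002 to 51065 TPM. Motor neuron markers overlapped between all groups and summed to 72.9 to 227 TPM in JA, 185 to 288 TPM in SNI and 156 to 212 TPM in PLM. Schwann cell markers of the nerve roots also overlapped and varied within every group, from 61.8 to 6292 TPM in JA. Blood markers summed to 8233 to 11763 TPM in PLM, above the 4341 to 7431 TPM in SNI. The part of these in the receptor values was not tested beyond the rescaling.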

How the data were processed

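RNA from 9 rats was sequenced in 3 groups of 3. The authors removed adaptors and low-quality reads, mapped with HISAT2 and computed expression with StringTie, and the submitters' processing notes also name fastp version 0.19.5. These notes name the build GRCh38.p13, a human assembly, whereas 32883 of the 34890 identifiers are rat Ensembl genes, so no coordinates are given. The authors deposited TPM values rounded to 2 decimals. The unit was read from the values, which sum to between 999999.57 and 1000000.42 per sample. The study's methods name DESeq2, which needs counts and was not used here.

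Here, limma version 3.58.1 (R version 4.3.3, variance trend) was fitted to log2(TPM + 1) of each pair of groups. Loci averaging 1 TPM or more in the 6 samples were tested, without covariates and with Benjamini-Hochberg adjustment over all loci tested. Grm2, under this limit, is given from a fit without it. The limma step was tested on simulated data that held no shift common to a sample, so that test cannot speak to calls made under such a shift. Replicates are labelled as biological, and each was counted once. All 6 receptors were described, together with the partner genes past the threshold (up to 6 per direction), further partners looked up after their values were seen, the first 4 astrocyte markers and Sox9, and the loci most like each receptor (5 for Grm3, 3 for the others). Not every such locus is reported here. Members and lists were chosen with earlier results of these data known. Alternatives were other scalings (median-centred, quantile, without mitochondrial genes), a pseudocount of 0.1, other filters, a joint model of the 9 samples, a block for replicate number, the study's thresholds, and leaving out each sample.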

Additional observations from a re-analysis of the deposited data

How the results depend on the processing

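No receptor was called by limma in SNI against JA or PLM against JA under any alternative. In PLM against SNI, 1 receptor, Grm4, was called with loci kept only at 1 TPM or more in every sample, and 0 under all others, the study's thresholds included (unadjusted p under 0.05 and absolute log2 fold change above 1). With each sample left out in turn the number was between 0 and 0 in all 3 comparisons. Read depth is unknown, so the part of counting error in the low values of Grm2, Grm5 and Grm8 cannot be given.

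The sign of small values turned with the scaling. Grm3 in SNI against JA was -0.0417 when centred (with or without the replicate block), -0.0444 after quantile normalization, -0.00776 without the mitochondrial genes and -0.0329 when centred without a filter. Grm3 in PLM against SNI was 0.10 when centred (with or without the replicate block), 0.0737 after quantile normalization and 0.0837 when centred without a filter. In PLM against JA it was 0.0565, 0.0304 and 0.0497 under the same settings. With a sample left out, Grm3 lay between -0.00267 and 0.163 in SNI against JA, below 0 without JA replicate 3, between -0.192 and -0.0950 in PLM against SNI, and between -0.150 and 0.0161 in PLM against JA, above 0 without JA replicate 2. Grm7 in PLM against SNI was 0.00632 when centred (with or without the replicate block) and 0.0106 after quantile normalization. In PLM against JA, centring with or without the block, quantile normalization, and centring without a filter gave 0.0337, 0.0354 and 0.0269 for Grm4 and 0.0617, 0.0491 and 0.0550 for Grm5. With a sample left out there, Grm4 lay between -0.290 and 0.0119, above 0 without JA replicate 1 or 3 or PLM replicate 1, and Grm7 between -0.0647 and 0.204, below 0 without JA replicate 2 or 3. Grm5 and Grm8 kept their signs there but varied in size, between -0.135 and -0.00667 and between 0.0581 and 0.220. Grm2 in SNI against JA was -0.0470 when centred without a filter, a setting added after the data had been seen. The adjusted p of these values was never under 0.05.

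The number of loci called moved more. In SNI against JA it was 0, and 1 with no filter, 107 at the study's thresholds, and 1 to 8 with a sample left out. In PLM against SNI it was 2148, and 126 when centred, 155 after quantile normalization, 283 without the mitochondrial genes, 1258 with no filter, 70 with no filter and centred, 471 in the fit to all 9 samples, 255 at the study's thresholds, and 275 to 1494 with a sample left out, fewest without PLM replicate 2 and most without SNI replicate 2. In PLM against JA it was 3, and 5 with a pseudocount of 0.1, 1 with no filter or in the fit to all 9 samples, 144 at the study's thresholds, and 3 to 22 with a sample left out, the most without JA replicate 3. With the replicate number as a block it was 152 in PLM against SNI and 1 in PLM against JA, and 0 and 0 when also centred, where 1928 and 1333 loci had an unadjusted p under 0.05 in limma. Deviations of same-numbered samples correlated between -0.05 and 0.12, and those of differently numbered samples between -0.19 and 0.14. With 3 samples per group this cannot decide whether the numbers pair the samples. The cause of these differences was not tested.

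Grm3 minus the 4 other receptors differed between PLM and SNI by 0.178 to 0.288 with a sample left out, and by 0.0938 against Grm7 alone. Between SNI and JA it lay between -0.405 and -0.112, and between PLM and JA between -0.174 and 0.119.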
